A study of Mus musculus with 22 samples.

Results

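The glucagon locus was followed here as 10 genes of mouse chromosome 2: *Gcg* itself and its 9 flanking genes, *Tank*, *Psmd14*, *Tbr1*, *Slc4a10*, *Dpp4*, *Fap*, *Ifih1*, *Gca* and *Kcnh7*. They were chosen by position and matched by Ensembl gene ID, and all 10 were found in both count tables, out of 30332 genes listed in either table. RNA had been counted in 22 libraries, each from 100 tdTomato+ pancreatic cells sorted by flow cytometry from male and female littermates. In embryos (E14.5) there were 6 control and 5 *Isl1CKO* libraries, and in pups (P9) there were 5 control and 6 *Isl1CKO* libraries. *Isl1CKO* mice carried Isl1 f/f; Neurod1Cre; TomatoAi14, and controls carried Isl1 f/+; Neurod1Cre; TomatoAi14 as the study describes these libraries, although their records call them WT. Both groups therefore carried the Cre transgene and the reporter, and the controls kept 1 intact *Isl1* allele. The *Neurod1* promoter drives the Cre, so that the deletion and the red label are limited to cells that have expressed *Neurod1* and their progeny. The P9 pancreas was perfused with collagenase before trypsin and the E14.5 pancreas was treated with trypsin alone, so age and dissociation cannot be told apart. The study calls the libraries of a group biological replicates and does not say which animals each came from, and p-values measure the spread between these libraries.

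*Gcg* encodes proglucagon, the prohormone that pancreatic alpha cells cut into glucagon and intestinal L cells cut into GLP-1 and GLP-2. Its promoter carries AT-rich elements at which homeodomain factors, ISL1 among them, are known to act. The neighbours have unlike roles: *Dpp4* and *Fap* encode related membrane serine proteases, the first of which inactivates GLP-1 and GIP, while the others encode an ion transporter, a potassium channel, a brain T-box factor, a proteasome subunit, a signalling adaptor, an RNA sensor and a calcium-binding protein.

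On GRCm38, *Gcg* lies on the minus strand of chromosome 2 from 62474530 to 62483650. The nearest gene is *Fap*, 17.3 kb away (62500943 to 62574075, minus strand), and on the other side *Dpp4* begins 62.3 kb from *Gcg* (62330073 to 62412231, minus strand). *Slc4a10* (62046462 to 62326730, plus strand) ends 3.34 kb from *Dpp4*. *Tbr1*, *Psmd14* and *Tank* lie farther out on that side, up to 820.4 kb from *Gcg*, and *Ifih1*, *Gca* and *Kcnh7* lie beyond *Fap*, within 209.8 kb of *Gcg*. All 10 genes are protein coding. Exons of *Gca* and *Kcnh7* share 696 bases on opposite strands, which is 20.4% of the exon length of *Gca* and 4.57% of that of *Kcnh7*. The reads were counted without strand, so reads in these bases cannot be assigned to one of the pair.

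The promoter windows of 3 members that differed between the groups are shown because the deleted factor is a homeodomain protein. Each window runs from 250 bases before to 50 bases after the transcription start of the RefSeq transcript on GRCm38.p6, written 5′ to 3′ on the gene's strand. Capitals mark TAAT, the core that homeodomain factors recognise, and ATTA, the same core on the other strand.
Gcg, chr2:62483604-62483903, minus strand: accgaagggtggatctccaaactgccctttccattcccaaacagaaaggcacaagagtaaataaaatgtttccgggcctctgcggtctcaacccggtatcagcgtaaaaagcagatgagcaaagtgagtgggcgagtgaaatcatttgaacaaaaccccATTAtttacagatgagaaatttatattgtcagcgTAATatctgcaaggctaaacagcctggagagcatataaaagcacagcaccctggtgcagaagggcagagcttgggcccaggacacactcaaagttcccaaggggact
Dpp4, chr2:62412182-62412481, minus strand: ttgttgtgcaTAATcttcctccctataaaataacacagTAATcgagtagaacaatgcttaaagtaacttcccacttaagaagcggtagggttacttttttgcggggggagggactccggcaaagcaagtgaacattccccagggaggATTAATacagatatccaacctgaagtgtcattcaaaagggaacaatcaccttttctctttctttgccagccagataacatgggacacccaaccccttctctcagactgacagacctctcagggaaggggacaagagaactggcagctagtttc
Slc4a10, the start farther upstream, chr2:62046265-62046564, plus strand: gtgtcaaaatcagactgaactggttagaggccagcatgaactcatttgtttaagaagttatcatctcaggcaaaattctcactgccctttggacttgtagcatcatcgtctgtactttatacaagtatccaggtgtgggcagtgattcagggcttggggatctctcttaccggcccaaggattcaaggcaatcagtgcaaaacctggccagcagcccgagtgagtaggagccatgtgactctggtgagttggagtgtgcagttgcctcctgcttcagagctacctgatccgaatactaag
The *Gcg* window held 2 matches, at -91 and -57 from the start. The *Dpp4* window held 4, of which those at -103 and -101 overlap. This window of *Slc4a10* held 0, and that of its other start held 2. A core of 4 letters is common: 58.0% of the 32851 promoter windows of the genome held at least 1, so a match describes the letters and is not a binding site. The *Gcg* window had in addition the hexamer TATAAA at -24 and, on the other strand, at -72. The *Dpp4* window held it at -227 and the printed *Slc4a10* window, on the other strand, at -135. Of all windows 13.6% held this hexamer on either strand. RefSeq promoters were found for 9 of the 10 members, and *Fap* was not among them.

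*Isl1*, the deleted gene, still gave reads in every library. Its level, in CPM (counts relative to a library size scaled by the TMM factors of all 22 libraries), ran from 784 to 1044 in control and from 550 to 713 in *Isl1CKO* libraries at E14.5. At P9 it ran from 359.5 to 530 in controls and from 449 to 1242 in *Isl1CKO*. The log2 fold change was -0.48 at E14.5 (standard error, SE, 0.079, adjusted p = 0.0063) and 1.08 at P9 (SE 0.21, adjusted p = 0.0081) by edgeR's quasi-likelihood test. The counts sum all exons, so they do not measure the floxed part alone and do not check the labels. Library totals ran from 8477482 to 13580985 counts. In P9 controls the TMM factors were 0.737 to 0.833 against 1.09 to 1.40 in P9 *Isl1CKO*.

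**Figure D1:**
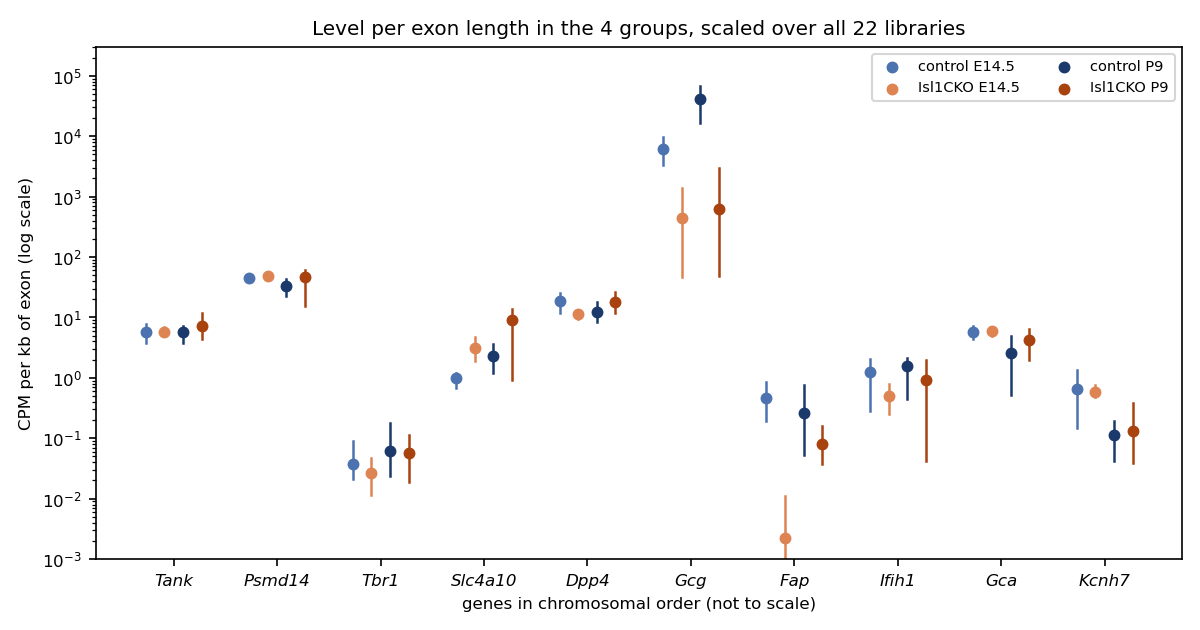
Level of the 10 genes in the 4 groups, as CPM per kb of exon on a log axis, in chromosomal order; points are group means and lines span the lowest and highest library, cut at the lower axis limit where a library was at 0. *Gcg* stood far above its neighbours in every group, at a mean of 40585 in P9 controls and 451 in E14.5 *Isl1CKO*.

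*Gcg* was the most abundant gene of the locus per kb of exon in all 4 groups, and *Tbr1* or *Fap* was the lowest. In E14.5 controls *Gcg* stood at 6161 CPM per kb, *Psmd14* followed at 45.6, and *Dpp4* at 19.0. *Tank* and *Gca* were near each other at 5.76 and 5.75 CPM per kb, *Ifih1* and *Slc4a10* at 1.26 and 0.978, *Kcnh7* at 0.651, *Fap* at 0.467 and *Tbr1* at 0.0380. High abundance in these cells was thus not shared along the locus, and the gene next to *Gcg*, *Fap*, was among the least abundant.

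*Gcg* fell in *Isl1CKO* at both ages. At E14.5 it stood at a lowest, median and highest level of 4973, 8753 and 14419 CPM in the 6 control libraries, and at 168, 309, 2045, 70.0 and 779 CPM in *Isl1CKO* libraries 1 to 5. Every *Isl1CKO* library was below every control library, although *Isl1CKO* libraries ranged over more than an order of magnitude among themselves. The log2 fold change was -3.77 (SE 0.70, adjusted p = 0.0148 by edgeR), a 13.6-fold fall. At P9 the control libraries 1 to 5 stood at 101330, 31477, 24645, 51267 and 94454 CPM. The 6 *Isl1CKO* libraries at that age had a lowest level of 73.3, a median of 263 and a highest of 4502 CPM. Again no library of one group reached the other, and the highest *Isl1CKO* value, that of library 2, stood far above the rest of its group. That library also had the highest sum of delta, PP and epsilon cell markers in its group, 8365 CPM beside a median of 611. Its sum of gut endocrine markers was the highest too, at 20738 CPM beside a median of 4111. Nearly all of the first sum was *Ppy*, at 8348 CPM, and nearly all of the second was *Pyy*, at 20726 CPM. The delta cell marker *Sst* stood at 0.343 CPM or less in every P9 *Isl1CKO* library. The P9 log2 fold change was -6.03 (SE 1.02, adjusted p = 0.0026 by edgeR), a 65.1-fold fall.

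As a share of all counts, *Gcg* fell from 1.21% ± 0.425 (SD, n = 6) to 0.0907% ± 0.109 (SD, n = 5) at E14.5 and from 3.55% ± 2.13 (SD, n = 5) to 0.0780% ± 0.142 (SD, n = 6) at P9. An exact two-sided permutation test gave p = 0.00433 at each age, the smallest p that these numbers of libraries allow. In pooled cells, fewer alpha cells and less *Gcg* RNA per cell cannot be told apart. In controls *Gcg* was 2.72 higher on the log2 scale at P9 than at E14.5 (SE 0.86, adjusted p = 0.0181 by edgeR), but with libraries scaled by their total counts, which moves the median gene by -1.21, this difference was 1.55 (adjusted p = 0.0992). Mean levels fell in the order P9 controls (60635 ± 35472 CPM), E14.5 controls (9205 ± 3297), P9 *Isl1CKO* (932 ± 1752) and E14.5 *Isl1CKO* (674 ± 813). Only the last pair overlapped. No difference of the fall between the ages passed the interaction test over all 22 libraries (log2 difference -2.25, SE 1.17, adjusted p = 0.379), which without P9 *Isl1CKO* library 2 became -4.35 (adjusted p = 0.0077).

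At E14.5, 9 members had enough counts for a test, but *Fap* had them through the controls alone and is described by its own counts. Of the 8 others 3 passed, *Gcg* and *Dpp4* lower and *Slc4a10* higher, where 1.43% of all 15960 genes tested passed. The median log2 fold change of these 8 was -0.068, beside -0.0045 over all genes. The groups did not overlap for 2 of the 8, *Gcg* and *Slc4a10*, where 2.43% of genes tested had groups without overlap. At P9, 2 of the 8 members tested passed, *Gcg* lower and *Slc4a10* higher, where 4.81% of the 13964 genes tested passed. The median of the 8 was 0.43, beside 0.023 over all genes. *Gcg* alone had groups without overlap among them, where 5.44% of genes tested had. *Fap* and *Tbr1* had too few counts for a test at P9, and *Tbr1* at E14.5 too.

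**Figure D2:**
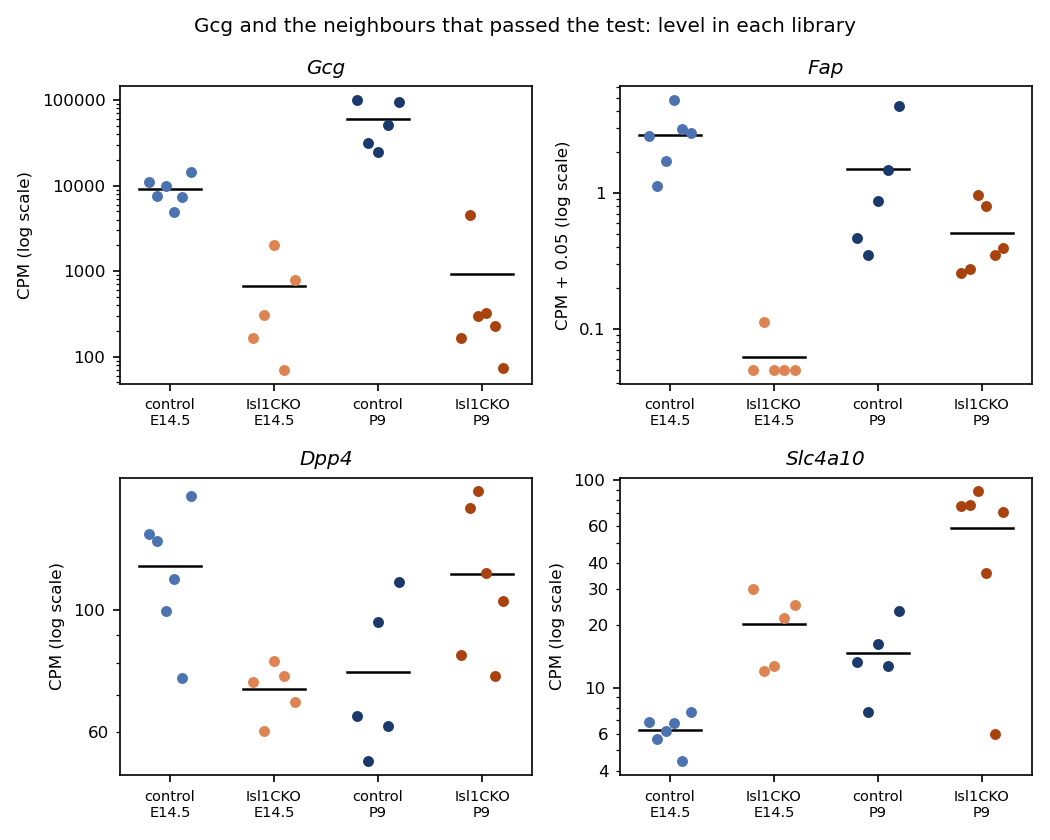
CPM of *Gcg*, *Fap*, *Dpp4* and *Slc4a10* in each library on log axes, scaled over all 22 libraries, with 0.05 added for *Fap* so that libraries at 0 can be drawn; each point is a library and the black bar is the group mean. *Fap* lay at 0 in 4 of the 5 E14.5 *Isl1CKO* libraries, *Dpp4* was lower at E14.5 and not at P9, and *Slc4a10* was higher at both ages except in P9 *Isl1CKO* library 5.

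*Fap*, which encodes fibroblast activation protein, a serine protease related to DPP4 and a marker of activated fibroblasts, was almost lost at E14.5. The 6 control libraries held 37, 17, 27, 78, 50 and 45 counts and the 5 *Isl1CKO* libraries 0, 1, 0, 0 and 0. No control library came near the *Isl1CKO* libraries. Summed over libraries and corrected for their sizes, the controls held 219 times as many *Fap* counts as *Isl1CKO*, with a 95% interval of 38.9 to 8672 that covers counting error only, since the *Isl1CKO* total was 1 count. The level was 2.64 ± 1.29 CPM (SD, n = 6) in controls and 0.0125 ± 0.0280 CPM (SD, n = 5) in *Isl1CKO*, and an exact two-sided permutation test over libraries, added after seeing the data, gave p = 0.00433, the smallest these numbers allow. The groups had already been seen not to overlap, so this p restates that separation and adds no support. edgeR's log2 fold change of -7.05 (adjusted p = 0.000464) depends on its prior count, and since *Fap* passed the filter on low counts through the controls alone, it is not counted among the calls. At P9 the picture was different: control libraries held 3, 2, 6, 9 and 33 counts and *Isl1CKO* libraries 2, 2, 8, 6, 3 and 4. The groups overlapped, and control library 5 held most of the control counts. The summed ratio of control to *Isl1CKO* was 3.44 (95% interval from the counts, 2.10 to 5.77) and, without that library, 1.66 (0.873 to 3.11). The exact two-sided permutation p over libraries at P9 was 0.117. The intervals of the 2 ages, 38.9 to 8672 and 2.10 to 5.77, lay apart, but they leave out the spread between libraries. The E14.5 interval rests on 1 *Isl1CKO* count and the P9 interval largely on control library 5. They are therefore no test of a difference between the ages. edgeR's test of that difference rests on the same E14.5 counts of 0 and 1 and is not counted. Of the 8 other members tested for such a difference 1 passed, *Dpp4*, where 2.08% of 17265 genes passed.

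Because *Fap* is known from fibroblasts, mesenchyme markers were read beside it. Of the 8 listed, 7 were in the E14.5 table, and *Vim* rose. The other 3 tested had the same direction as *Fap* and did not pass by edgeR: *Col1a2* stood at 23.0 CPM in controls and 8.44 in *Isl1CKO* (log2 fold change -1.44, adjusted p = 0.138), *Dcn* at 10.2 and 3.17 CPM (-1.69, adjusted p = 0.143) and *Col3a1* at 1.43 and 0.518 CPM (-1.45, adjusted p = 0.433). By DESeq2 3 of the list passed. The summed level of the list was 107 to 162 CPM in control and 156 to 301 in *Isl1CKO* libraries at E14.5, most of it *Vim*, which encodes the filament protein vimentin. Without *Vim*, a reading added after seeing the values, the sum was 14.2 to 48.9 CPM in controls and 10.0 to 19.4 CPM in *Isl1CKO*. E14.5 control libraries 1 to 6 held 14.2, 47.9, 31.5, 39.0, 32.6 and 48.9 CPM of these markers without *Vim*. Their *Fap* levels were 2.60, 1.08, 1.68, 4.84, 2.91 and 2.74 CPM. P9 control libraries 1 to 5 held 9.92, 25.2, 76.8, 86.2 and 12.6 CPM of these markers. Their *Fap* levels were 0.419, 0.302, 0.827, 1.42 and 4.33 CPM. The part of mesenchymal cells in the *Fap* difference was not tested.

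Over libraries, the proportion of *Fap* to *Gcg* differed between the groups at P9 and gave no clear difference at E14.5. In E14.5 controls there were 2.89 *Fap* counts per 10000 *Gcg* counts (95% interval from the counts, 2.55 to 3.27), and single libraries ran from 1.41 to 9.74. In E14.5 *Isl1CKO* there were 0.173 (0.00438 to 0.963). At the pooled control proportion the 5 *Isl1CKO* libraries would have held 16.7 *Fap* counts and library 3 alone 10.1. They held 1 and 0, but single control libraries departed widely from that proportion. At P9 the proportion was 0.246 per 10000 (0.184 to 0.322) in controls and 5.01 (3.24 to 7.40) in *Isl1CKO*, where 25 counts were found and 1.23 would have been held at the control proportion. Per library, the log2 ratio of *Fap* to *Gcg*, with 0.5 added to both counts, was 1.39 lower in *Isl1CKO* at E14.5 (exact two-sided permutation p = 0.216) and 6.13 higher at P9 (exact p = 0.00433). The E14.5 value rests on what is added to counts of 0, since with 5 added it was 1.49 higher (exact p = 0.139). *Gcg* and *Fap* thus both fell at E14.5, while at P9 the ratio of *Fap* to *Gcg* was above the highest control library in all 6 *Isl1CKO* libraries. Those 6 libraries held only 2 to 8 *Fap* counts, and so near the floor the ratio can rise through the fall of *Gcg* alone.

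**Figure D3:**
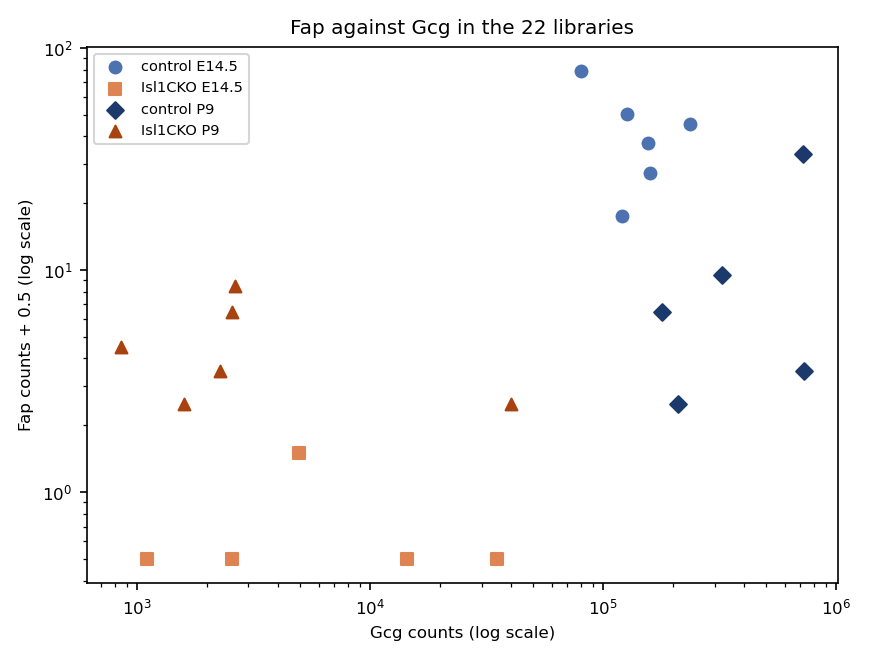
*Fap* counts, with 0.5 added, against *Gcg* counts in each of the 22 libraries, on log axes; the 4 symbols are the 4 groups. The E14.5 *Isl1CKO* libraries lie at 0 or 1 *Fap* counts whatever their *Gcg*, and the P9 *Isl1CKO* libraries lie at 2 to 8 *Fap* counts with less *Gcg* than any P9 control.

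*Dpp4*, which encodes the protease that clips GLP-1 and GIP, fell at E14.5, and its effect at P9 differed from that at E14.5. At E14.5 it stood at a lowest, median and highest level of 75.2, 124 and 161 CPM in controls and at 74.0, 60.3, 80.5, 75.8 and 67.9 CPM in *Isl1CKO* libraries 1 to 5. Control library 5, the lowest, lay within the *Isl1CKO* range. The log2 fold change was -0.74 (SE 0.16, adjusted p = 0.0375 by edgeR), and the call is marginal: leaving out any of 9 of the 11 libraries raised the adjusted p above 0.05, up to 0.105. At P9 the control libraries held 64.0, 53.0, 95.1, 61.4 and 112 CPM, and the *Isl1CKO* libraries ran from 75.8 to 164 CPM with a median of 110. The groups overlapped, and the log2 fold change of 0.58 (SE 0.25) did not pass (adjusted p = 0.234). The difference between the ages passed, at 1.33 on the log2 scale (SE 0.31, adjusted p = 0.0261), but not without E14.5 *Isl1CKO* library 2 (adjusted p = 0.0531). In controls *Dpp4* was 0.64 lower on the log2 scale at P9 than at E14.5 (SE 0.22, adjusted p = 0.0319), a call lost on leaving out any of 6 control libraries (adjusted p up to 0.0880). Under total counts the P9 effect became 1.21 (adjusted p = 0.0024), where the median of all genes moved to 0.68. *Dpp4* shares 232 exon bases with the antisense gene *Gm13561*, 3.67% of its exon length.

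*Slc4a10*, which encodes a sodium-coupled bicarbonate transporter of neurons and some epithelia, was the only member higher in *Isl1CKO* by the test, and it was so at both ages. At E14.5 controls ran from 4.43 to 7.69 CPM with a median of 6.49, and *Isl1CKO* libraries 1 to 5 stood at 30.1, 12.1, 12.8, 21.6 and 25.0 CPM. All 5 lay above all 6 controls. The log2 fold change was 1.70 (SE 0.26, adjusted p = 0.0034 by edgeR). At P9 control libraries 1 to 5 held 13.3, 7.70, 16.3, 12.8 and 23.5 CPM and *Isl1CKO* libraries 1 to 6 held 75.1, 75.8, 88.8, 36.0, 6.02 and 70.6 CPM. Of the 6, 5 lay above every control and library 5 lay below them all. The log2 fold change was 1.99 (SE 0.51, adjusted p = 0.0364), and leaving out any of 8 of the 11 libraries raised the adjusted p above 0.05, up to 0.0930. No difference of the effect between the ages passed the interaction test (0.30, SE 0.59, adjusted p = 0.882). In controls *Slc4a10* was 1.23 higher on the log2 scale at P9 (SE 0.42, adjusted p = 0.0290), a call lost on leaving out any of 4 control libraries (adjusted p up to 0.0981), and 0.059 with total counts (adjusted p = 0.912). The 3.34 kb gap thus separates a gene that was higher at both ages from *Dpp4*, which was lower at E14.5.

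The other members gave no call in either comparison. *Ifih1*, which encodes MDA5, a cytosolic sensor of double-stranded RNA, had the largest difference among them, with 2.30 to 16.9 CPM in E14.5 controls and 2.07 to 6.44 in *Isl1CKO* (log2 fold change -1.31, SE 0.45, adjusted p = 0.229). At P9 its libraries ran from 3.58 to 17.7 CPM in controls and from 0.338 to 16.4 in *Isl1CKO* (-0.81, SE 0.74, adjusted p = 0.656). *Psmd14*, which encodes the deubiquitinating subunit of the proteasome lid, stood at E14.5 at 129 ± 12.0 CPM (SD, n = 6) in controls and 139 ± 13.8 (SD, n = 5) in *Isl1CKO*. At P9 it was 92.4 ± 20.9 (SD, n = 5) and 134 ± 46.4 (SD, n = 6), a log2 fold change of 0.53 (SE 0.28, adjusted p = 0.358) that passed when P9 *Isl1CKO* library 5, at 44.4 CPM, was left out (0.71, adjusted p = 0.0268). *Tank*, which encodes an adaptor of TRAF and TBK1 signalling, had means of 35.1 to 35.4 CPM in 3 groups and 44.7 in P9 *Isl1CKO*, with every neighbouring pair in that order overlapping.

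*Gca*, which encodes grancalcin, a penta-EF-hand calcium-binding protein, was at 19.6 ± 3.76 CPM (SD, n = 6) and 20.3 ± 2.22 (SD, n = 5) at E14.5 and at 8.79 ± 5.66 (SD, n = 5) and 14.3 ± 6.24 (SD, n = 6) at P9, controls first. *Kcnh7*, which encodes the ERG3 potassium channel, was at 9.91 ± 6.10 and 8.89 ± 1.82 CPM at E14.5 and at 1.75 ± 1.08 and 1.98 ± 1.96 CPM at P9. Control libraries of the 2 ages overlapped for both genes. In controls *Kcnh7* fell by 2.49 on the log2 scale from E14.5 to P9 (SE 0.61, adjusted p = 0.0033) and *Gca* by 1.16 (SE 0.39, adjusted p = 0.0248), the latter lost without E14.5 control library 3 (adjusted p = 0.0501) or P9 control library 4 (adjusted p = 0.0631). In this comparison of ages 5 of the 8 members other than *Fap* passed, where 31.0% of all genes did. *Tbr1*, a T-box factor known from the cortex, stood at 8 counts or fewer in every library and was not tested.

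**Figure D4:**
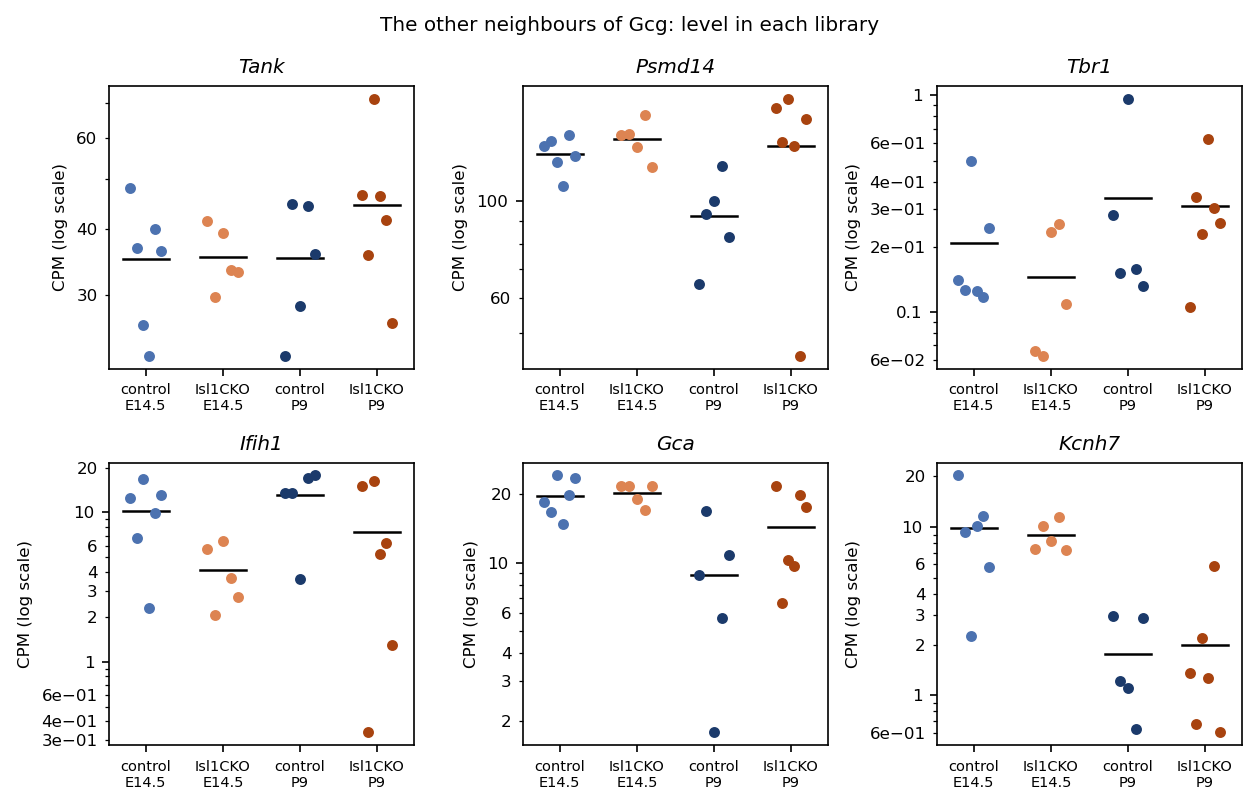
CPM of the 6 members without a call in either comparison of *Isl1CKO* with control, one panel a gene, on log axes scaled over all 22 libraries; points are libraries and black bars group means. *Isl1CKO* and control libraries overlap in every panel at each age, and *Kcnh7* is lower at P9 than at E14.5 in most libraries.

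Calls were found next to *Gcg* and again several Mb away. Within 2 Mb on either side 35 genes are annotated, of which 13 were tested at E14.5 and 9 at P9. The genes that passed were members, *Gcg*, *Dpp4*, *Slc4a10* and, through the controls alone, *Fap* at E14.5, and *Gcg* and *Slc4a10* at P9. The other 4 tested at E14.5 were *Itgb6*, *Rbms1*, *Gm13590* and *Fign*, with log2 fold changes of -0.22 to 0.79, and *Rbms1* was the only other at P9, at 0.14. Within 5 Mb and apart from the members, 4 of 28 genes tested passed at E14.5 and 5 of 25 at P9. Over all genes tested 1.43% passed at E14.5 and 4.81% at P9. These called genes that were no members lay more than 2 Mb out. At E14.5 all of them were lower, and at P9 they went in both directions. Between *Gcg* and the nearest uncalled tested gene at E14.5, *Ifih1*, the gap was 112 kb.

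**Figure D5:**
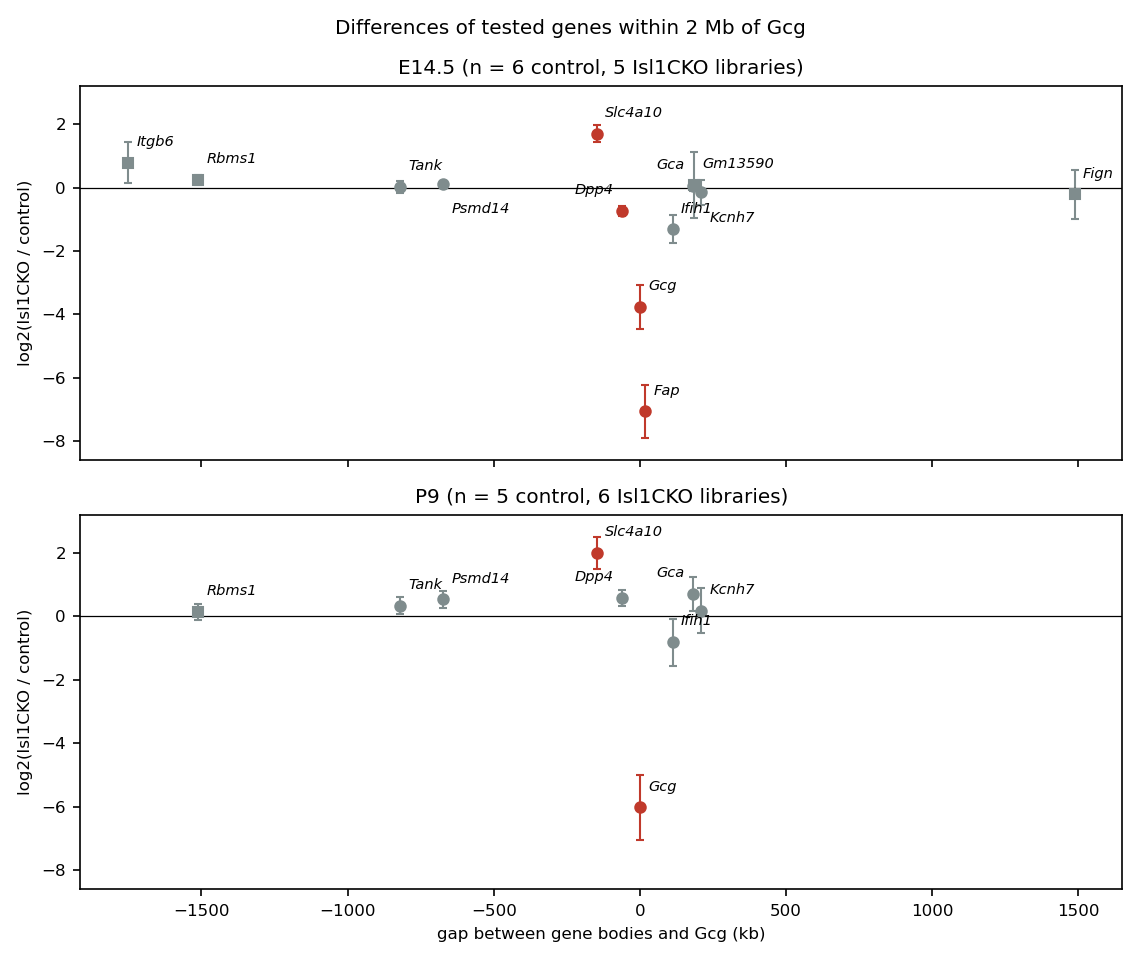
Log2 fold change of *Isl1CKO* against control, with its standard error, for the genes tested within 2 Mb of *Gcg*, against the gap between gene bodies in kb; circles are members, squares other genes, and red marks an adjusted p under 0.05. At E14.5 the genes past that threshold are *Slc4a10*, *Dpp4*, *Gcg* and *Fap*, neighbouring members, of which *Fap* entered the test through the controls alone, and at P9 *Slc4a10* and *Gcg*.

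Within a group, no relation between a neighbour and *Gcg* from library to library passed after correction. Relations were computed in the 2 groups of 6 libraries, E14.5 controls and P9 *Isl1CKO*, for 9 neighbours each, on log2(CPM + 1). Of the 18, 2 had an exact permutation p of Pearson's r under 0.05 before adjustment and 0 after it, the smallest adjusted p being 0.383. In E14.5 controls *Ifih1* had r = 0.85 (exact permutation p = 0.0472) and rho = 0.77 (exact p = 0.103), and r = 0.73 without the 2 libraries farthest from the median of *Gcg*. In P9 *Isl1CKO* *Gca* ran against *Gcg*, with r = -0.81 (exact permutation p = 0.0361) and rho = -0.83 (exact p = 0.0583), and r = -0.94 without those 2. *Fap* had r = -0.35 (exact permutation p = 0.508) in E14.5 controls and -0.15 (exact p = 0.953) in P9 *Isl1CKO*. With 6 libraries in each group a relation of moderate size would not have been detectable.

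Over all 22 libraries the genes most like *Gcg* lay on other chromosomes. As a description over 13377 genes tested at both ages, which share the 4 groups, the highest Pearson correlations of log2(CPM + 1) with *Gcg* were those of *Loxl2* (0.92), *Plut* (0.90), *Tmsb15b2* (0.90), *Hadh* (0.90) and *Ffar3* (0.87). *Loxl2* encodes a lysyl oxidase relative, *Plut* is a non-coding RNA of the *Pdx1* locus, *Hadh* encodes a mitochondrial enzyme of fatty acid oxidation and *Ffar3* a receptor of short-chain fatty acids. Once each group's mean was taken out, their correlations were 0.54, 0.49, 0.14, 0.29 and 0.59. Among the neighbours tested at both ages *Ifih1* came highest, at 0.43 and rank 832, then *Dpp4* at 0.019 and rank 6023, and *Slc4a10* came lowest, at -0.49 and rank 12689. With the group means taken out these were -0.070, 0.34 and 0.058, the value of *Dpp4* being above those of *Hadh* and *Tmsb15b2*. *Fap*, which was not tested at both ages and so has no rank, stood at 0.57, and at 0.032 with the group means taken out. *Hadh* fell from 242 ± 64.9 CPM (SD, n = 6) to 94.8 ± 14.49 (SD, n = 5) at E14.5 and from 716 ± 129 (SD, n = 5) to 96.1 ± 24.6 (SD, n = 6) at P9, with adjusted p = 0.000844 and 8.47e-07 by edgeR.

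The other ligands of the glucagon family moved in both directions at E14.5. There 3 of 3 tested passed: *Gcg*, *Gip*, the gene of an incretin hormone, which fell from 59.4 ± 39.0 to 7.19 ± 4.18 CPM (adjusted p = 0.0348), and *Sct*, the gene of secretin, which rose from 97.5 ± 17.8 to 176 ± 19.0 CPM (adjusted p = 0.0021). At P9 *Gcg* passed and *Sct* did not (adjusted p = 0.779), and *Gip* had too few libraries with counts for a test. Of the family's receptors 0 of 5 passed at E14.5 by edgeR, 1 at an unadjusted p under 0.05 and 0 by DESeq2. At P9 1 of 4 passed, *Glp1r*, the GLP-1 receptor, which fell from 1043 ± 275 to 139 ± 71.6 CPM (adjusted p = 0.000448). Of the genes for prohormone processing 0 of 6 passed at E14.5 by edgeR, 3 at an unadjusted p under 0.05 and 1 by DESeq2. At P9 1 of 6 passed, *Pam*, which encodes the amidating enzyme and rose from 252 ± 34.7 to 571 ± 91.0 CPM (adjusted p = 0.000217).

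Of regulators of the *Gcg* promoter, the homeodomain genes *Pax6*, by 0.39 on the log2 scale (adjusted p = 0.0069), and *Pou3f4*, by 0.91 (adjusted p = 0.0420), fell at E14.5 beside *Isl1*. At P9 *Rfx6* rose by 1.12 (adjusted p = 0.0281) along with *Isl1*, while *Pax6* (log2 fold change -0.079, adjusted p = 0.841) and *Pou3f4* (-2.08, adjusted p = 0.203) did not pass. All these log2 changes were smaller than that of *Gcg* at the same age.

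In the families to which the neighbours belong, the relatives elsewhere in the genome mostly gave no call. Of 9 prolyl peptidases tested at E14.5, *Dpp4* passed and, entering through the controls alone, *Fap*, and at P9 1 of 8 did, *Dpp9*, which fell by 0.97 on the log2 scale (adjusted p = 0.0345). Among the bicarbonate transporters *Slc4a10* was the 1 of 6 that passed at E14.5, and at P9 *Slc4a7* fell by 0.60 (adjusted p = 0.0202) beside the rise of *Slc4a10*. Among the potassium channels of the KCNH family, 1 of 6 passed at E14.5, *Kcnh1*, which stood at 0.541 ± 0.300 CPM in controls and 11.7 ± 7.66 in *Isl1CKO* (log2 fold change 4.41, SE 0.61, adjusted p = 0.0016). Its control libraries ran from 0.183 to 0.990 CPM, near the floor. Its entry to the test thus rested mostly on the *Isl1CKO* libraries, a limit like that of *Fap*, and the size of the rise is uncertain. At P9 0 of 6 passed by edgeR, 2 at an unadjusted p under 0.05 and 0 by DESeq2. Of the penta-EF-hand genes 0 of 7 passed at E14.5 by edgeR, 1 at an unadjusted p under 0.05 and 1 by DESeq2, and 1 of 7 passed at P9, *Sri*, the gene of sorcin, which rose by 0.72 (adjusted p = 0.0289). Of the RNA-sensing genes with *Ifih1*, 0 of 13 passed at E14.5 and 0 of 11 at P9 by edgeR, 1 and 2 at an unadjusted p under 0.05 and 0 at either age by DESeq2. Of the interferon response genes 1 of 4 passed at E14.5, *Rsad2*, which fell by 2.01 (adjusted p = 0.0437), and 0 of 3 at P9 by edgeR, with 0 at an unadjusted p under 0.05 and 0 by DESeq2. The proteasome lid with *Psmd14* gave 0 of 9 at each age by edgeR, 1 at an unadjusted p under 0.05 and 0 by DESeq2. Of the T-box genes 0 of 2 tested at E14.5 and 0 of 1 at P9 passed by edgeR, 1 and 0 at an unadjusted p under 0.05 and 1 and 0 by DESeq2.

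The endocrine label of the libraries was read from marker lists. Of alpha cell markers, *Gcg* and *Pou3f4* fell at E14.5 and *Ttr*, which encodes transthyretin, rose. The study also names *Ttr* among the signature genes of endocrine progenitors. At P9 *Gcg* fell, and *Ttr* and *Slc38a5*, an amino acid transporter of alpha cells, rose, the latter by 2.93 on the log2 scale (SE 0.55, adjusted p = 0.0056). In controls *Slc38a5* stood at 2602 CPM at E14.5 and at 122 CPM at P9, so it did not go with *Gcg* there. The homeobox genes *Irx1* (0.23 at E14.5, adjusted p = 0.854, and -0.20 at P9, adjusted p = 0.951) and *Irx2* (0.12, adjusted p = 0.797, and -0.049, adjusted p = 0.981) did not pass. Of 8 beta cell markers 1 fell at E14.5 and 7 at P9, and 0 rose at either age. Among markers of other cell types, 2 of 4 hepatoblast genes tested rose at E14.5, *Fgb*, which encodes a fibrinogen chain (log2 fold change 2.42, adjusted p = 0.0194), and *Apoa1*, which encodes an apolipoprotein (4.16, adjusted p = 0.0437). The hepatoblast list summed to 6.97 to 38.3 CPM in E14.5 controls and 30.9 to 169.7 CPM in E14.5 *Isl1CKO*, and its part in the members' differences was not tested. Of the neuron and Schwann cell list, *Snap25* rose by 0.64 (adjusted p = 0.0235) and *Elavl4* fell by 0.76 (adjusted p = 0.0494) at P9, while 0 of 5 passed at E14.5 by edgeR, 0 at an unadjusted p under 0.05 and 1 by DESeq2. Over the 6 lists of macrophage, lymphocyte, endothelium, acinar, duct and erythroid, 0 of 13 genes tested at E14.5 and 0 of 14 at P9 passed by edgeR, 4 at each age at an unadjusted p under 0.05, and 1 and 2 by DESeq2. The macrophage list summed to 27.9 to 43.0 CPM in E14.5 controls and 27.3 to 88.6 CPM in E14.5 *Isl1CKO*, and without *Isl1CKO* libraries 3, 4 and 5, where it was highest, *Gcg* still passed at that age (log2 fold change -5.27, adjusted p = 0.000615) while *Fap* (-6.05, adjusted p = 0.0757), *Slc4a10* (1.76, adjusted p = 0.0870) and *Dpp4* (-0.83, adjusted p = 0.380) did not, with 2 *Isl1CKO* libraries left.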

How the data were processed

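Libraries of 100 tdTomato+ cells were prepared with a single-cell low-input kit and sequenced on an Illumina NextSeq. The authors trimmed the reads with cutadapt 1.18 and Trimmomatic, removed ribosomal reads with Bowtie 1.2.2 and SortMeRNA, mapped the rest to GRCm38 with STAR 2.7.0c and counted reads per gene with Rsubread, without strand and dropping multi-mapping reads. The deposited tables hold these raw counts, 1 table per age, for genes with at least 10 counts over all libraries of that age. Gene positions and exon lengths came from GENCODE M21, where 27078 of the 27124 IDs of the E14.5 table and 27456 of the 27504 of the P9 table were found.

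Tests across genes used edgeR 4.0.16 under R 4.3.3 (TMM factors, filterByExpr, glmQLFit, glmQLFTest) per age, with Benjamini-Hochberg adjustment over all genes tested and a threshold of 0.05. The standard error is the log2 fold change divided by the square root of F. The difference of the effect between ages and the comparison of ages in controls came from 1 fit over all 22 libraries. CPM were computed with the TMM factors of that fit. Exact permutation tests and intervals came from scipy 1.17.1. Alternatives used DESeq2 1.42.0 and limma 3.58.1, other scalings and filters, each library left out, and the replicate number as a block. The statistics were tested on simulated data. No 2 libraries were alike enough to be the same one deposited again. Counting intervals and limits cover counting error only.

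The genes named are the 10 members, *Isl1*, genes called within 2 Mb of *Gcg*, the 5 genes most correlated with *Gcg* over all libraries, up to 4 called genes of each list by smallest p, and markers of the cells a member is known from. Genes that show what a marker sum consists of are named too. The members and lists were chosen with earlier results of these data known. Some listed regulators of the *Gcg* promoter and alpha cell markers are not reported here, so no counts are given over those lists. Mesenchyme markers without *Vim*, *Fap* without P9 control library 5, and the exact test of *Fap* levels were added after seeing the data. Columns of samples that could not be mapped numbered 0.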

Additional observations from a re-analysis of the deposited data

Results flagged for a closer look

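Of 40 sets of values, 1 for each member in each group, 7 held a library that stood apart from the others of its group by Dixon's test, which flags about 1 in 20 by chance. At E14.5 these were *Fap* in *Isl1CKO* library 2 at 0.0627 CPM, which is 1 count, and *Tbr1* in control library 3 at 0.498 CPM. At P9 they were *Gcg* in *Isl1CKO* library 2 at 4502 CPM, *Fap* in control library 5 at 4.33 CPM, *Tbr1* in control library 3 at 0.965 CPM, and both *Psmd14* at 44.4 CPM and *Kcnh7* at 5.82 CPM in *Isl1CKO* library 5. The same P9 *Isl1CKO* library 5 had the lowest *Slc4a10* level of its group, 6.02 CPM, and the lowest *Isl1* level, 449 CPM. It also had the highest sums of lymphocyte markers, 135.6 CPM beside a group median of 29.9, and of hepatoblast markers, 70.7 CPM beside 7.59. Nearly all of that lymphocyte sum was 1 gene, *Cd79a*, at 132.9 CPM, which stood at 24.8 to 48.2 CPM in P9 controls. The lymphocyte marker *Ptprc* stood at 2.77 CPM or less in every P9 *Isl1CKO* library. The part of these markers in the values of library 5 was not tested.

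By edgeR's interaction test the effect of *Isl1CKO* differed between the ages for *Dpp4*, by 1.33 on the log2 scale (adjusted p = 0.0261). The value is the P9 effect less the E14.5 effect. For *Fap* that test gave 5.22 (adjusted p = 0.0170), which is not counted. The *Fap* value rests on E14.5 *Isl1CKO* counts of 0 and 1, with *Fap* kept in the test through the other libraries, and is no support for a difference.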

How the results depend on the processing

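*Gcg* passed the test at both ages under every alternative except without E14.5 *Isl1CKO* library 5 (-3.82, adjusted p = 0.0511). With each library left out its log2 fold change ran from -4.80 to -3.48 at E14.5 and from -8.13 to -5.76 at P9. *Slc4a10* at E14.5 lost its call only without the 3 macrophage-marker libraries, and *Fap* there and under a minimum fold and level.

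Of the members, 4 passed at E14.5, *Fap* included, but 1 without those libraries and 2 with that minimum (a fold change over 1.5 or under 0.5 and a mean of 50 scaled counts). *Fap* entered the E14.5 test through the controls alone, so counts that include it only describe the fits. At P9, 2 were called, but 5 with total counts, and 1 with no filter, limma-voom or the replicate block. Total counts called 4 members for the difference between ages, and *Fap* is included here and below where it was tested. Leaving out 1 library gave 2 to 4 members at E14.5, 1 to 3 at P9, 1 to 3 for the difference between ages and 3 to 6 between the ages in controls. The genes called over the whole table numbered 228 at E14.5, but 653 by DESeq2, 134 with the replicate block, 42 without the macrophage-marker libraries, 131 with the minimum fold and level, and 114 to 229 with 1 library left out. At P9 they numbered 671, but 1677 by DESeq2, 3962 with total counts and 333 with the block, and 467 to 682 with 1 library left out. Called genes within 5 Mb of *Gcg*, members included, numbered 8 at E14.5 and 7 at P9, against 4 and 2 within 2 Mb. *Fap* is among those at E14.5. The causes were not tested.

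Directions turned where values were near 0, where a scaling or an added count moved them, or where 1 library carried them. For *Kcnh7*, leaving out P9 *Isl1CKO* library 5 gave -0.53 at P9 and -0.39 for the age difference. By limma-voom *Kcnh7* was 0.12 at E14.5 and -0.11 at P9. Between the ages in controls *Tank* was -1.18 with total counts, -0.095 with totals without hormone genes and -0.11 with no filter, and *Ifih1* was -0.85 with total counts. The *Fap* to *Gcg* ratio at E14.5 was 1.49 with 5 added to the counts. With 1 library left out, *Tank* ran from -0.080 to 0.13 and *Gca* from -0.018 to 0.12 at E14.5, *Kcnh7* from -0.36 to 0.18 at E14.5 and from -0.53 to 0.43 at P9, the age difference of *Kcnh7* from -0.39 to 0.59, and *Tank* between ages in controls from -0.096 to 0.12.

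The replicate numbers did not pair the libraries: deviations of same-numbered libraries correlated at -0.049 to 0.054 at E14.5 and -0.022 to 0.049 at P9, and 1 of 5 and 2 of 5 libraries correlated best with their own number. With the block *Dpp4* at E14.5 had an adjusted p of 0.132 and *Slc4a10* at P9 of 0.257.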
